A study of Mus musculus with 13 samples.

Results

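Integrins are the adhesion receptors examined here, as the transcripts of 9 subunit genes in microglia, the resident macrophages of the brain. The genes were chosen by name (Itga4, Itga5, Itga6, Itga9, Itgal, Itgav, Itgb1, Itgb3 and Itgb5), and all 9 were found among the 14518 gene entries of the deposited table. The cells came from C57BL/6 mice aged 2 months, by a sort on CD11b and an intermediate level of CD45. Mice of the stressed group (RSD, n = 7) met an aggressor repeatedly, in 6 cycles of social defeat, and RNA was taken 24 days after the last of them. Control mice (CON, n = 6) are described in the labels as controls and no further. The labels name no transgene or drug in either group. Nor do they state that samples were different animals, and a p-value here weighs a difference against the spread of these samples, which may in part be technical. The comparison asks what of the microglial transcriptome still differed long after stress had ended.

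An integrin is a pair of membrane proteins, 1 alpha and 1 beta subunit, that binds matrix proteins or other cells outside and the actin skeleton inside. Itgb1 pairs with many alpha subunits, among them those of Itga4, Itga5, Itga6, Itga9 and Itgav, while the Itgav product also pairs with those of Itgb3 and Itgb5. Itgal pairs with Itgb2, which is not among the 9 genes, to form the leukocyte receptor for ICAM proteins. CD11b, the antigen used for the sort, is itself an integrin alpha subunit, encoded by Itgam.

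The libraries held 9.76 to 12.3 M reads each. A pair of them stood apart. Over all genes, the median Spearman correlation of a library with the others was 0.948 for CON 18 and 0.975 for RSD 8, and 0.988 to 0.992 for the other 11. The defining microglial genes P2ry12, Tmem119, Cx3cr1 and Sall1 were present in every library. In CON 18, 3 of 10 microglial markers stood below 50% of the median of the other libraries. Among these were P2ry12 (0.427-fold) and Sall1 (0.287-fold). In the same library 9 of 9 measured markers of border-associated macrophages, the macrophages of the brain's membranes and vessels, stood above 2-fold. Their summed level was 4906 to 8576 normalized reads in RSD, and 35790 in CON 18 against 7372 to 8384 in the other controls. Outside CON 18 most of this sum was 1 gene, Stab1. It stood at 4602 to 8191 in the other 12 libraries and at 18400 in CON 18, 2.35-fold their median. Among the markers low elsewhere, Mrc1 was at 12409 normalized reads in CON 18, against 165 to 405 in the other 12 libraries, and Ms4a7 at 1839 against 1.04 to 8.35. For the 9 genes, differences between RSD and CON are given with and without these libraries.

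The members differed widely in level. Reads are normalized reads here, that is counts divided by a sample's size factor, and levels between genes are given per kilobase of exon. Itgb5, whose product pairs with that of Itgav and binds vitronectin and MFG-E8, was highest, at 3119 ± 374 normalized reads per kb in RSD (SD, n = 7) against 3232 ± 358 in CON (SD, n = 6). Itgb1, the shared beta subunit, stood at 931 ± 83.0 in RSD against 853 ± 72.1 in CON per kb, and the laminin receptor subunit Itga6 at 920 ± 56.8 in RSD against 878 ± 73.5 in CON. Below them came Itgav (549 ± 61.6 in RSD against 514 ± 51.1 in CON), which serves 3 of the beta subunits, and Itga9, a receptor subunit for tenascin and VCAM-1 (253 ± 16.9 in RSD against 252 ± 8.32 in CON). Itgb3, the beta subunit of the classical vitronectin receptor, was at 255 ± 19.8 per kb in RSD against 222 ± 77.8 in CON (253 ± 21.1 without CON 18), and the fibronectin receptor subunit Itga5 at 64.1 ± 10.6 in RSD against 74.2 ± 5.96 in CON.

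At the low end were a pair of subunits best known from blood leukocytes. Itga4, which binds VCAM-1 and fibronectin, stood at 4.76 ± 0.928 normalized reads per kb in RSD, and at 4.19 ± 0.560 in CON without CON 18 (n = 5). Itgal stood at 1.83 ± 0.595 per kb in RSD against 1.68 ± 0.857 in CON without CON 18. In CON 18 they were at 342 and 117 per kb.

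Of the 8 neighbouring pairs in this order, 6 passed and 2 did not, by an exact two-sided sign-flip permutation test over the 13 libraries with Benjamini-Hochberg adjustment. The order came from the same libraries that were tested. A pass thus says only that a ratio held its direction across libraries for the length used. Itga6 lay above Itgb1 in 6 of 13 libraries (mean log2 ratio 0.012 ± 0.15 SD, adjusted exact permutation p = 0.919). Itga9 lay above Itgb3 in 7 of 13 (0.14 ± 0.51, adjusted p = 0.565, exact permutation). Itgb5 lay above Itga6 in 13 of 13 libraries, with a mean log2 ratio of 1.81 ± 0.26. The length matters for the middle of the order: per kb of the longest transcript in place of all exons, Itga6 lay above Itgb1 in 13 of 13 libraries (mean log2 ratio 0.98 ± 0.15, adjusted p = 0.000391, exact permutation), and Itga9 above Itgb3 in 10 of 13 (adjusted p = 0.00366, exact permutation).

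**Figure D1:**
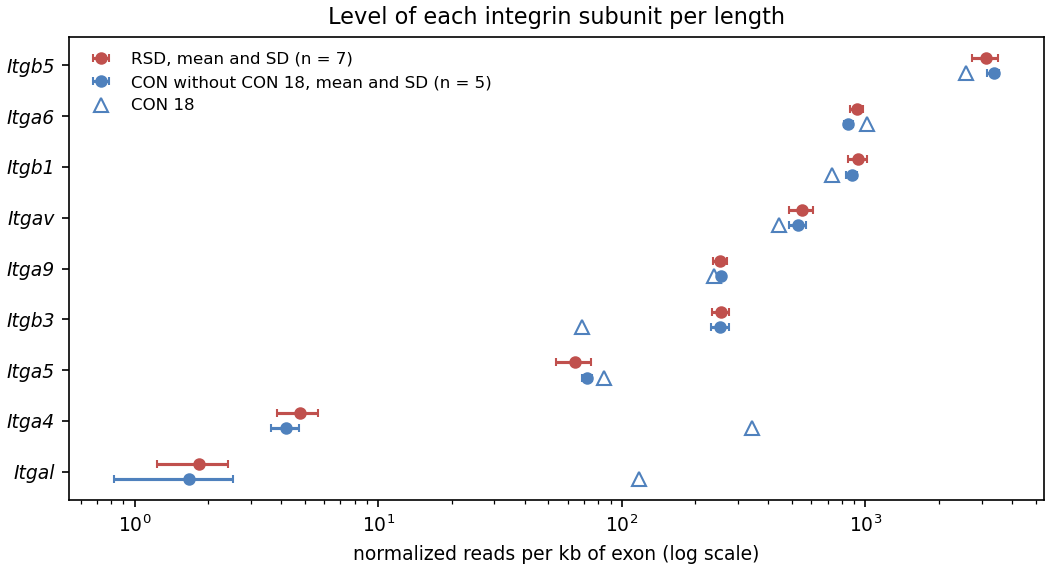
Normalized reads per kb of exon (log axis) for each integrin gene, as mean and SD of RSD (n = 7) and of CON without CON 18 (n = 5), with CON 18 as an open triangle. Itgb5 was highest in both groups and Itgal lowest, and CON 18 lies far above both groups for Itga4 (342) and Itgal (117).

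The promoters of the gene that stood highest per kb in every library and of the gene that set CON 18 apart most are shown, as the 2 members that the values single out; nothing about the levels was tested against these sequences. RefSeq (GRCm38.p6, the assembly of mm10) gave a promoter for 6 of the 9 genes, from 250 bases before to 50 after the start. Capitals mark a GC box (GGGCGG) or a RUNX core (TGTGGT), on either strand; the PU.1 core (GAGGAA) was searched as well, and no hits overlapped. The Itgb5 window lies at chr16:33829415-33829714 (plus strand) and the Itga4 window at chr2:79255176-79255475 (plus strand).
Itgb5: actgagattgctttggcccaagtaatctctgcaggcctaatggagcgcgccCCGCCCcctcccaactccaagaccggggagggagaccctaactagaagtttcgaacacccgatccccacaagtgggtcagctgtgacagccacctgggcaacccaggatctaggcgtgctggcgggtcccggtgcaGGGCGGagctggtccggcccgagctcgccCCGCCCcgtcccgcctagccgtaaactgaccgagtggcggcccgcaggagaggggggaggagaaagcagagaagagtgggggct
Itga4: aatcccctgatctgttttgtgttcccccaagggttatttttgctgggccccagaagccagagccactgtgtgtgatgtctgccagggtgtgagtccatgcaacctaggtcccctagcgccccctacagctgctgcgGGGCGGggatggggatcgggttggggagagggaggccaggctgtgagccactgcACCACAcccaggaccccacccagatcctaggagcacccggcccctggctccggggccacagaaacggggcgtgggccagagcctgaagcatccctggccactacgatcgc
Both windows are rich in G and C (65.7% for Itgb5 and 64.3% for Itga4), and both hold a GC box, as do 35.9% of the 27025 promoters in the table. The Itga4 window also holds 1 RUNX core, a motif found in 16.9% of promoters, and neither holds the PU.1 core, found in 28.3%.

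No member passed the test between RSD and CON. In limma, which gave 0 calls among the 12496 genes tested (0%), 0 of 9 members had an adjusted p under 0.05, and 0 of 9 had an unadjusted p under 0.05, where 4% of all genes did. edgeR called 0 of 9, with Itga4 and Itgal under an unadjusted 0.05 (4.81% of all genes) at log2 differences of -3.67 and -3.49. Without CON 18, which held 4241 and 684 of their reads, edgeR gave 0.18 and 0.14, and 0 of 9 members had an unadjusted p under 0.05 (5.17% of all genes). DESeq2 called 0 of the 7 members it gave a p (0.016% of all genes were called), had 0 of 7 under an unadjusted 0.05 (4.62% of all genes), and gave no p for Itga4 and Itgal. Without CON 18, 0 of 9 members had an unadjusted limma p under 0.05, where 4.92% of all genes did, and without CON 18 and RSD 8 again 0 of 9, where 4.88% did. The groups overlapped for all 9 members (0.064% of genes had groups that did not). The median log2 difference of the 9 members was 0.0046, and that of all genes tested was 0.0057.

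**Figure D2:**
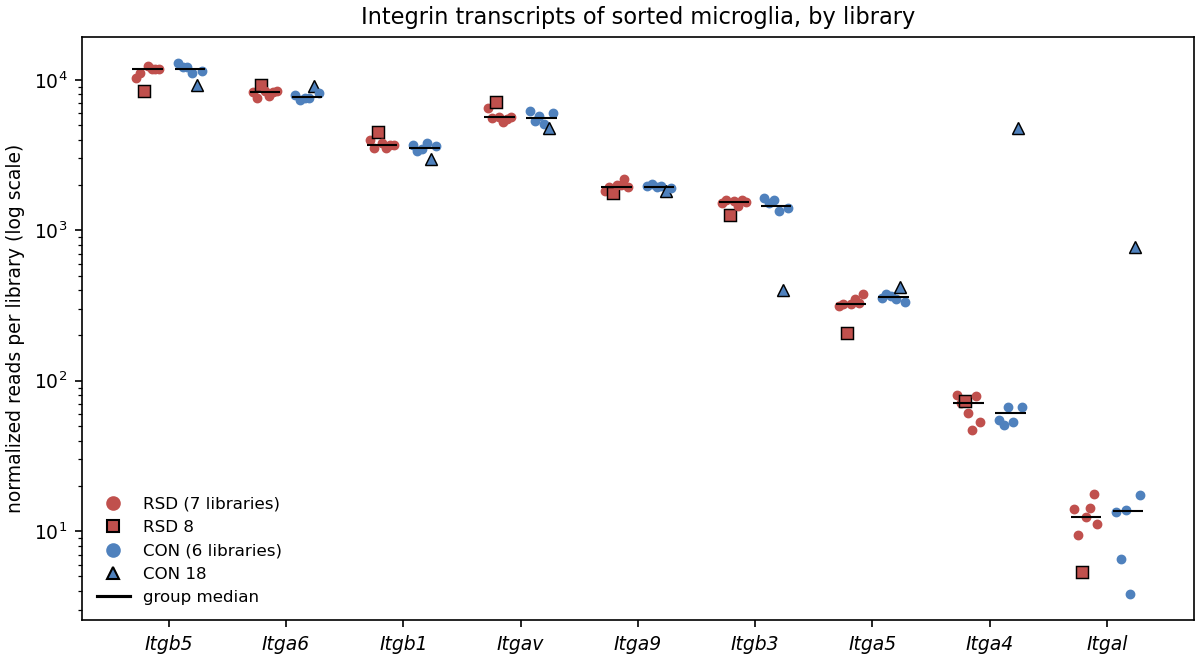
Normalized reads (log axis) of the 9 integrin genes in each library, RSD left and CON right of each pair, with the group median as a line; RSD 8 is a square and CON 18 a triangle. Groups overlap for all 9 genes, and CON 18 lies far from the other controls for Itga4, Itgal and Itgb3.

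Among receptors for vitronectin and related ligands, Itgb5 (chromosome 16, 33829665 to 33949338, mm10) had a lowest, median and highest value of 8409, 11773 and 12259 normalized reads in RSD, and of 9209, 11803 and 12870 in CON. The lowest RSD library was RSD 8 and the lowest control CON 18, and the rest overlapped. On the log2 scale RSD minus CON was -0.05 ± 0.10 (SE) with a 95% interval of -0.26 to 0.15 (limma adjusted p = 0.892). It was -0.12 without CON 18, 0.011 without RSD 8 and -0.05 without both.

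Itgav (chromosome 2, 83724397 to 83806916) ran from 5224 through a median of 5690 to 7116 normalized reads in RSD, and from 4768 through 5553 to 6192 in CON. Its highest value was in RSD 8 and its lowest in CON 18. RSD minus CON was 0.09 ± 0.08 on the log2 scale, with a 95% interval of -0.086 to 0.27 (limma adjusted p = 0.821). Leaving out CON 18 gave 0.05, leaving out RSD 8 also 0.05, and leaving out both 0.0060. Gm13684, a transcript on the opposite strand, shares 634 exon bases with Itgav, and without knowledge of strand use reads from there cannot be told apart.

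Itgb3 (chromosome 11, 104608000 to 104670476) had a lowest, median and highest value of 1261, 1540 and 1595 normalized reads in RSD, and of 403, 1456 and 1627 in CON. All libraries but CON 18 lay between 1261 and 1627, and CON 18 was at 26.4% of the median of the others. The difference was 0.32 ± 0.27 on the log2 scale (95% interval -0.27 to 0.91, limma adjusted p = 0.821), 0.0080 ± 0.074 without CON 18 and 0.05 ± 0.06 without CON 18 and RSD 8. In bulk RNA, fewer cells of a type and less RNA per cell cannot be told apart.

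Of the subunits that share Itgb1, Itga6 (chromosome 2, 71745616 to 71858416) ran from 7622 through 8343 to 9249 normalized reads in RSD and from 7309 through 7740 to 9149 in CON. The highest control was CON 18, and the other 5 lay between 7309 and 8116. The log2 difference was 0.07 ± 0.07 (95% interval -0.076 to 0.21, limma adjusted p = 0.826), 0.11 ± 0.06 without CON 18 and 0.08 ± 0.05 without CON 18 and RSD 8. Itgb1 itself (chromosome 8, 128685654 to 128733200) ran from 3493 through 3679 to 4488 in RSD and from 2974 through 3541 to 3809 in CON. RSD 8 was the highest and CON 18 the lowest of all 13. The log2 difference was 0.13 ± 0.08 (95% interval -0.03 to 0.29, limma adjusted p = 0.821), 0.08 without CON 18, 0.09 without RSD 8 and 0.04 without both.

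Itga9 (chromosome 9, 118606690 to 118901003) varied least, with 1780, 1933 and 2175 normalized reads as lowest, median and highest in RSD, and 1831, 1950 and 2021 in CON. Over all 13 libraries its coefficient of variation was 5.20%, and the log2 difference was 0.0046 ± 0.061 (95% interval -0.12 to 0.13, limma adjusted p = 0.985), -0.012 without CON 18 and 0.0094 without CON 18 and RSD 8. Itga5 (chromosome 15, 103344286 to 103366763) had the smallest limma p of the 9 over all libraries; in edgeR that was Itga4, and in limma without CON 18 it was Itga6. Itga5 ran from 208 through 324 to 375 normalized reads in RSD and from 335 through 360 to 418 in CON. Of the RSD libraries, RSD 8 was far below the rest, which lay between 311 and 375. RSD minus CON was -0.23 ± 0.12 on the log2 scale (95% interval -0.47 to 0.017, limma adjusted p = 0.821), -0.19 ± 0.12 without CON 18 and -0.09 ± 0.07 without CON 18 and RSD 8.

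Itga4 (chromosome 2, 79255426 to 79333123) stood at 80.2, 70.7, 73.4, 61.3, 46.8, 79.5 and 53.3 normalized reads in RSD 2, 7, 8, 10, 11, 12 and 13. Its values in CON 1, 4, 5, 17, 18 and 19 were 54.8, 51.0, 67.2, 52.9, 4779 and 66.7. A single control, CON 18, was thus at 74.7-fold the median of the other 12 libraries, and those 12 overlapped between groups. On the log2 scale the difference was -0.89 ± 0.94 (95% interval -2.95 to 1.17, limma adjusted p = 0.831), and 0.17 ± 0.16 without CON 18 (limma adjusted p = 0.755) and 0.14 ± 0.16 without CON 18 and RSD 8, so its sign turned with that library. Cerkl, a gene on the opposite strand, shares 1124 exon bases with Itga4. It held 26 reads in CON 18, where Itga4 held 4241, and 0 to 7 in the other libraries.

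Itgal (chromosome 7, 127296260 to 127335138) was close to the limit of detection in 12 libraries. Its reads numbered 12, 9, 5, 12, 14, 19 and 10 in RSD 2, 7, 8, 10, 11, 12 and 13. Controls CON 1, 4, 5, 17, 18 and 19 held 15, 7, 13, 4, 684 and 18 reads. CON 18 was at 59.4-fold the median of the others in normalized reads (771 against 13.0). The log2 difference was -0.82 ± 0.93 (95% interval -2.82 to 1.18, limma adjusted p = 0.838), and 0.21 ± 0.36 without CON 18 (limma adjusted p = 0.848) and 0.37 ± 0.35 without CON 18 and RSD 8. Counts of 4 to 19 reads leave a wide counting error, and Itgal lies near the filter on low counts, which it passed.

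**Figure D3:**
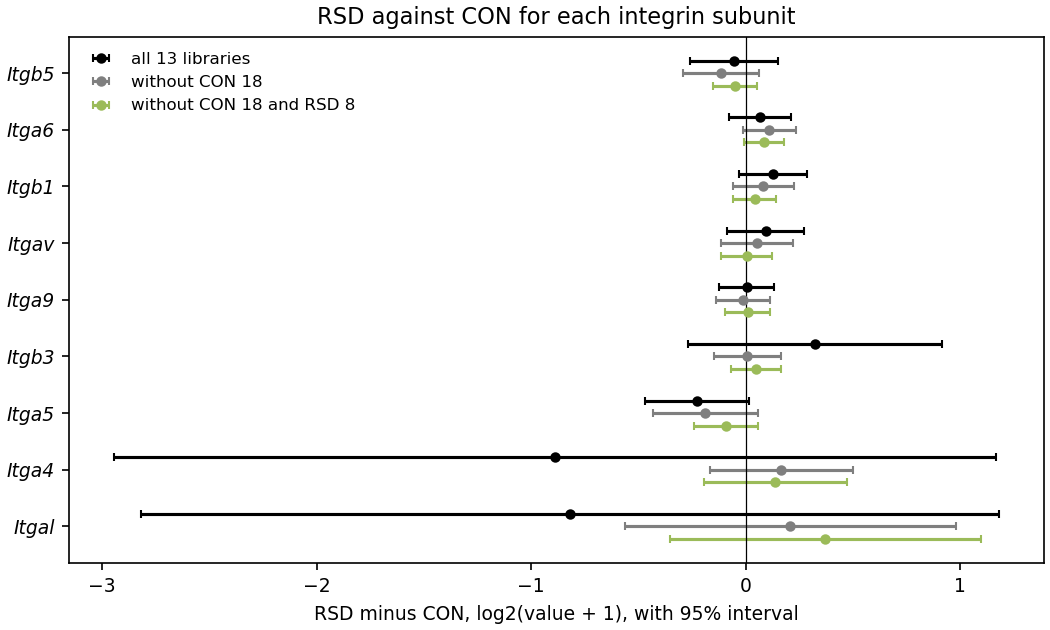
Difference of RSD minus CON on the log2(value + 1) scale with its 95% interval from limma, for all 13 libraries, without CON 18, and without CON 18 and RSD 8. Every interval holds 0, and those of Itga4, Itgal and Itgb3 narrowed without CON 18.

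In CON 18 the members parted. Itga4 and Itgal were the 11th and 14th highest of 12496 genes by their ratio to the median of the other 12 libraries, where 0.656% of genes reached 10-fold. Itga6 and Itga5 stood at 1.14-fold and 1.23-fold of that median, and Itga9 at 0.939-fold. Itgav (83.7%), Itgb1 (81.2%), Itgb5 (78.1%) and Itgb3 (26.4%) stood below it; Itgb3 was the one member under 50%, where 7.11% of all genes were. The sort gene Itgam was at 9559 normalized reads in CON 18, against 15246 to 16431 in the other 12 libraries. Ptprc, which encodes CD45, was at 9259 in CON 18, against 5527 to 9008. Itgb2, the partner of both Itgal and Itgam, was at 2940 in CON 18, against 3243 to 4164 in the other libraries.

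The makeup of the alpha subunits differed in CON 18 as well. Of the summed level per kb of the 6 alpha members, Itga4 took 15.3% and Itgal 5.24% in CON 18, against 0.198% to 0.319% and 0.0358% to 0.150% in the other libraries. Itgav took 19.8% there, against 28.5% to 33.7%, and Itga6 45.3%, against 49.0% to 52.1%, while the level of Itga6 itself was 1.14-fold the median. Among the 3 beta members, Itgb3 took 2.02% in CON 18, against 5.29% to 6.33% elsewhere. Of the 18 ligand genes tested, 3 stood above 2-fold of the median of the others in CON 18 and 3 below 50%. Of all 12496 genes tested, 795 stood above 2-fold and 889 below 50%. Vcam1, which the Itga4 product binds, was at 299 normalized reads in CON 18, 9.86-fold the median of the others. Icam1, which the Itgal product binds, was at 985, 0.932-fold the median, and the ligand gene Jam2 was at 0.304-fold.

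Markers of other cells give the setting of these values, and their part in them was not tested. The monocyte list (8 of 10 genes measured, 4 above 2-fold and 2 below 50% in CON 18) summed to 443 to 530 normalized reads in RSD, and to 593 in CON 18 against 445 to 534 in the other controls. Ccr2, the monocyte chemokine receptor, stood at 347 in CON 18 and at 295 to 357 elsewhere. The lymphocyte list (4 of 10 genes measured, 2 above 2-fold and 1 below 50% in CON 18) summed to 58.5 to 123 in RSD and to 63.1 in CON 18, against 72.1 to 118 in the other controls. The neutrophil list (10 of 10 genes measured, 1 above 2-fold and 6 below 50% in CON 18) summed to 34.2 to 1262 in RSD and to 69.9 in CON 18, against 15.5 to 792 in the other controls. Retnlg, Mmp8 and Lcn2 were at 0 in CON 18, and each was also at 0 in at least 1 other library. The platelet list (6 of 8 genes measured, 0 above 2-fold and 2 below 50% in CON 18) covers another cell known for Itgb3. It summed to 359 to 465 in RSD and to 245 in CON 18, against 332 to 457 in the other controls. Its member Gp5 was at 0 in CON 18, and at 0 to 6.97 in the other 12 libraries. The endothelial list (6 of 8 genes measured, 2 above 2-fold and 2 below 50% in CON 18) summed to 451 to 586 in RSD. It summed to 202 in CON 18, against 525 to 594 in the other controls. Its member Pecam1, the largest part of that sum in the other 12 libraries, was at 43.9 in CON 18, against 309 to 461. The other members did not share one direction. Cdh5 stood at 0.988-fold and Kdr at 0.956-fold of the median of the others, Ly6a at 0.329-fold, Flt1 at 3.64-fold and Slco1a4 at 2.43-fold. The astrocyte list (4 of 7 genes measured, 2 above 2-fold and 2 below 50% in CON 18) summed to 1277 to 1632 in RSD. It summed to 500.3 in CON 18, against 1264 to 1628 in the other controls. Its member Slc1a3, which made up most of that sum, was at 361 in CON 18, against 1128 to 1473 in the other 12 libraries. Aqp4 was also lower, at 0.277-fold the median of the others, while Slc1a2 stood at 5.82-fold and Aldh1l1 at 2.69-fold.

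RSD 8 differed from the other 12 libraries in another way. Itgav (126%), Itgb1 (123%), Itga6 (116%) and Itga4 (115%) stood above the median of the others, and Itga9 (91.3%), Itgb3 (82.4%), Itgb5 (71.3%), Itga5 (59.8%) and Itgal (38.9%) below it. Under 75% of the median were 3 of 9 members, where 25.7% of all genes were. The 4 members above have the lowest transcript GC content of the 9, from 41.1% in Itga4 to 48.9% in Itga6, and the 5 below have 51.6% in Itga9 to 57.3% in Itga5. Over 11878 genes, the Spearman correlation of a library's deviation with GC content was -0.725 in RSD 8 and -0.563 in RSD 2, and from -0.085 to 0.397 in the others. In RSD 8, 7 of 10 neutrophil markers stood above 2-fold. The neutrophil list summed to 996 there, where RSD libraries ran from 34.2 to 1262 and controls from 15.5 to 792. The part of the GC trend or of these markers in the members' values was not tested.

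**Figure D4:**
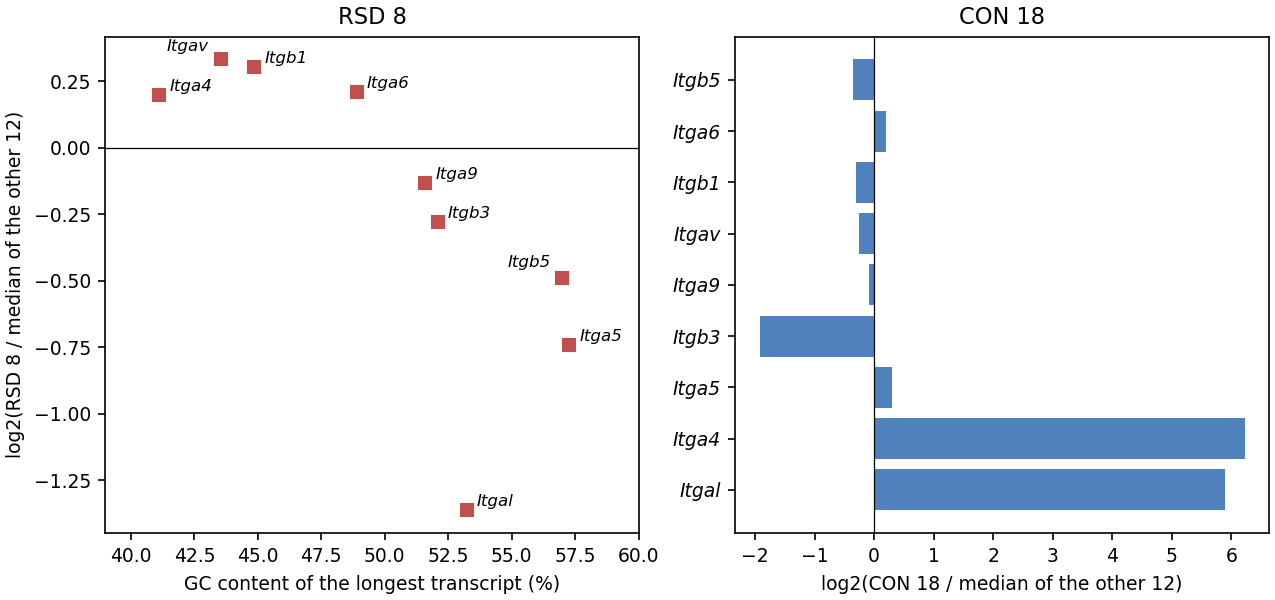
Left, log2 ratio of RSD 8 to the median of the other 12 libraries for each integrin gene against the GC content of its longest transcript. Right, the same ratio for CON 18, where Itga4 and Itgal lie above 5 and Itgb3 near -2 on the log2 scale.

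The sample numbers fall into 2 ranges, 1 to 8 and 10 to 19, and the labels do not say what they mark. The order of RSD and CON for Itgb5 differed between them. Within numbers 1 to 8 it stood at 10347, 11163 and 8409 normalized reads in RSD 2, 7 and 8, against 12870, 12129 and 12122 in CON 1, 4 and 5. Within numbers 10 to 19 it stood at 12259, 11803, 11773 and 11819 in RSD 10, 11, 12 and 13, against 11089, 9209 and 11484 in CON 17, 18 and 19. Every RSD library was thus below every control in the first range and above every control in the second, an order that 2.67% of all genes had in opposite directions. Without overlap within numbers 1 to 8 were 4 of 9 members (Itga4 higher in RSD, and Itga5, Itga9 and Itgb5 lower), where 30.5% of all genes were. Within numbers 10 to 19 they were 2 of 9 (Itgb3 and Itgb5, both higher in RSD), where 8.59% of all genes were.

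The log2 differences of Itgb5 were -0.32 ± 0.12 within numbers 1 to 8 (limma adjusted p = 0.205) and 0.18 ± 0.09 within numbers 10 to 19 (limma adjusted p = 0.726). The difference of the 2 effects was 0.50 ± 0.15 (limma interaction, adjusted p = 0.155), which did not pass; it was 0.40 ± 0.13 without CON 18 and 0.38 ± 0.12 without RSD 8. Over all libraries 1 of 9 members, Itgb5, had an unadjusted p under 0.05 in that limma test, a threshold that 21.7% of all genes met. Itga4 also did in edgeR, and Itgb3 in limma without CON 18. Within numbers 1 to 8 Itgb5 and Itga5 (-0.40 ± 0.17) had an unadjusted p under 0.05 in limma, that is 2 of 9 members, where 22.2% of all genes had. Within numbers 10 to 19 0 of 9 had, where 5.41% of genes had. RSD 2 and RSD 8, the libraries with the steepest GC trend, both belong to the first range. In that range RSD 7 was at -0.049, and CON 1, 4 and 5 were at 0.185, 0.397 and 0.228. There the GC trend and the group cannot be told apart, and the part of the trend in these differences was not tested.

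**Figure D5:**
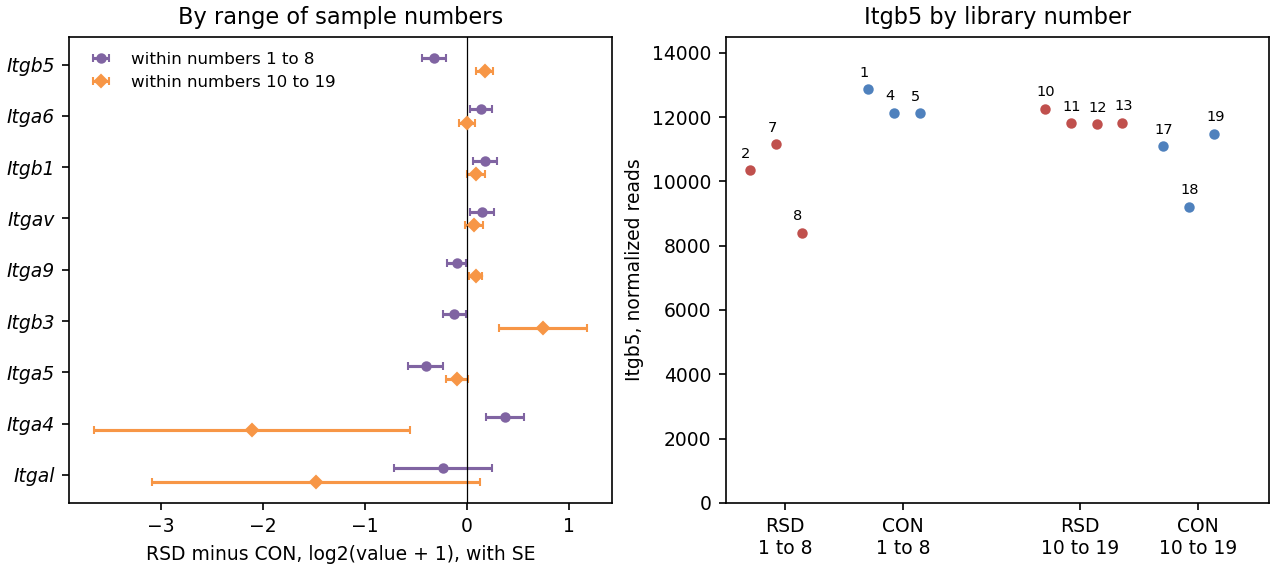
Left, RSD minus CON with SE on the log2(value + 1) scale within sample numbers 1 to 8 and within 10 to 19. Right, Itgb5 in each library, marked by its number: RSD lies below CON in the first range and above it in the second.

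Co-variation of known partners was examined for 7 pairs on the log2(value + 1) scale over the 13 libraries, with p-values adjusted over the 7. Itga5 and Itgb1 varied in opposite directions (Pearson r = -0.874, permutation p = 0.00023, adjusted 0.00161; Spearman rho = -0.725, permutation p = 0.00672, adjusted 0.047). Without RSD 8 and CON 18, the libraries farthest from the median of Itga5, r was -0.581 and kept its sign. It did not pass (permutation p = 0.0611, adjusted 0.214), so the pass over all libraries did not hold without them. Within numbers 1 to 8 r was -0.935 (exact permutation, adjusted p = 0.0243, n = 6), and within numbers 10 to 19 it was -0.823 (exact permutation, adjusted p = 0.114, n = 7). Without RSD 8 and CON 4, the farthest in Itga5 within numbers 1 to 8, r was -0.631. Without CON 18 and RSD 10, the farthest within numbers 10 to 19, r was 0.135, of opposite sign.

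Itgav and Itgb1 varied together (Pearson r = 0.800, permutation p = 0.00162, adjusted 0.00567; Spearman rho = 0.505, permutation p = 0.0817, adjusted 0.286). Without RSD 8 and CON 18, again the farthest, r was 0.380 and did not pass, and without RSD 8 alone it was 0.654 (permutation, adjusted p = 0.0506). Over numbers 1 to 8 r was 0.972 (exact permutation, adjusted p = 0.00972, n = 6), and within numbers 10 to 19 it was 0.645 (exact permutation, adjusted p = 0.142, n = 7). Without RSD 8 and CON 4, the farthest in Itgav within numbers 1 to 8, r was 0.944. Without CON 18 and CON 19, the farthest within numbers 10 to 19, r was 0.062.

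Itga6 and Itgb1 gave r = 0.233 over all libraries (permutation p = 0.447, adjusted 0.448; Spearman rho = 0.407, permutation p = 0.169, adjusted 0.394), a value that turned on CON 18 and RSD 8. Without CON 18 r was 0.838 (permutation p = 0.00135, adjusted 0.00945), without RSD 8 it was -0.219, and without CON 18 and RSD 8 it was 0.661, which did not pass (adjusted 0.190). For numbers 1 to 8 r was 0.999 (exact permutation, adjusted p = 0.00972, n = 6), and within numbers 10 to 19, which hold CON 18, it was -0.751 (exact permutation, adjusted p = 0.114, n = 7).

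Itgav and Itgb3 gave r = 0.452 (permutation p = 0.143, adjusted 0.256; Spearman rho = 0.291, permutation p = 0.336, adjusted 0.524), passed without RSD 8 (r = 0.632, permutation, adjusted p = 0.0309) and turned its sign without CON 18 (r = -0.248, permutation, adjusted p = 0.438). The other 3 pairs did not pass, with r of -0.590 for Itga4 and Itgb1 (Spearman rho = 0.071), -0.228 for Itga9 and Itgb1 (rho = -0.269) and -0.235 for Itgav and Itgb5 (rho = 0.022). Their smallest permutation p was 0.146 (adjusted 0.256).

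Genes of most alike pattern were taken as the 2 with the highest Spearman rho over the 13 samples, out of 12326 genes averaging 1 CPM or more (reads per library total); these are descriptions of the best of many, with no test. For Itgb5 they were Mul1 (rho 0.978) and Snx17 (0.962), a sorting nexin known to recycle integrins. For Itgb1 they were Ube2q1 (0.973) and Abcd3 (0.956), for Itgav Nf1 (0.951) and Lman1 (0.934), and for Itga6 Kdm4c (0.945) and Osbpl8 (0.923). For Itga9 they were Alg3 (0.967) and Slc12a5 (0.945), for Itga5 Aatk (0.962) and Extl3 (0.940), and for Itgb3 Cryba1 and Pfkl (0.868 each). For Itga4 they were Pde7a (0.962) and Ulbp1 (0.934), and for Itgal Hist1h2ab (0.907) and Tmem39a (0.890).

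The rest of the integrin pathway gave no call either. Of 10 other integrin subunits tested, 0 passed in limma, 0 had an unadjusted p under 0.05, and the median log2 difference was -0.07. Itgam stood at 15771 ± 307 normalized reads in RSD against 15044 ± 2697 in CON (log2 difference 0.09 ± 0.11), and Itgb2 at 3716 ± 270 in RSD against 3751 ± 440 in CON (-0.0078 ± 0.083). Itgax, the CD11c subunit, was at 132 ± 29.2 in RSD against 151 ± 51.9 in CON. In CON 18 Itgax was at 251, 1.98-fold the median of the others. Of 18 ligand genes tested 0 passed, and 0 had an unadjusted p under 0.05 (limma median log2 -0.04). Of the classical ligands, Fn1 was at 29.3 normalized reads in CON 18, within the 2.78 to 44.8 of the other libraries. Spp1 averaged 7.05 ± 4.73 normalized reads in RSD against 15.2 ± 24.0 in CON (63.1 in CON 18), and was not tested. Tgfb1, whose latent product some Itgav receptors release, stood at 2882 ± 299 in RSD against 2874 ± 444 in CON.

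Inside the cell, talin and kindlin proteins bind the beta tails to switch integrins on. Of 17 activation genes tested 0 passed in limma and 1 had an unadjusted p under 0.05 on the lower side, where 1.98% of all genes had. It was Sharpin, an inhibitor of beta-1 integrin activation, at 382 ± 71.0 normalized reads in RSD against 460 ± 21.4 in CON (log2 difference -0.29 ± 0.12, limma adjusted p = 0.821), with a difference of -0.20 without RSD 8. Talin-1 (Tln1) stood at 8463 ± 760 in RSD against 8533 ± 721 in CON, and kindlin-3 (Fermt3) at 1966 ± 340 in RSD against 2035 ± 270 in CON.

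Of 38 focal adhesion and kinase genes tested 0 passed in limma, and 1 had an unadjusted p under 0.05. It lay on the lower side, where 1.98% of all genes had such a p. It was Fgr, a Src-family kinase of myeloid cells, at 34.6 ± 7.70 normalized reads in RSD against 50.9 ± 12.3 in CON (log2 difference -0.54 ± 0.20, limma adjusted p = 0.821), with a difference of -0.33 without CON 18 and RSD 8. Lyn, a kinase of the same family, was at 9758 ± 672 in RSD against 9458 ± 508 in CON, and Pyk2 (Ptk2b), a focal adhesion kinase of macrophages, at 1617 ± 95.2 in RSD against 1660 ± 65.2 in CON. Of 16 tested genes for membrane partners and traffic 0 passed and 0 had an unadjusted p under 0.05 (limma median log2 -0.0088).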

How the data were processed

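RNA of sorted mouse microglia was sequenced in 13 samples. Ribosomal RNA was removed in an Ovation SoLo library preparation, per the labels' protocols. The submitters' processing notes name STAR, DESeq2 and the mm10 build; versions, counter and strand use are, in the sources used here, not given. What the authors deposited is a table of a signal, the read count of a gene divided by a sample's size factor. In every sample 100% of values were whole multiples of 1 step (tolerance 0.01 reads), so reads were recovered, and they are the whole reads behind every count test. Every pair of libraries differed beyond sampling noise (lowest chi-square per degree of freedom 4.36). Intervals cover the spread between samples, which includes the counting error of each library. A single count of a few reads is uncertain in itself.

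limma 3.58.1 (R 4.3.3) was fitted to log2(value + 1) with trend and robust variances, RSD against CON, two-sided, for 12496 genes kept by edgeR's filterByExpr (minimum count 10, minimum total 15), adjusted by Benjamini and Hochberg, at 0.05. Differences on this scale understate those of low genes. The recovered reads were also fitted with edgeR 4.0.16 and DESeq2 1.42.0, and the limma step was tested on simulated data. Positions and exon lengths come from GENCODE M21 (GRCm38), matched by symbol. Correlations used 100000 permutations, or all of them under 10 samples. Alternatives were other scalings, pseudocounts, filters and subsets of libraries. Genes outside the members were named as the up to 2 of smallest p per direction and list under an unadjusted 0.05, with Itgam, Itgb2 and Ptprc, and other genes given as examples were chosen after their values were seen. Some genes of the marker lists are not reported here by name, and list counts and sums include them. The members, lists and tests were chosen with earlier results of these data known.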

Additional observations from a re-analysis of the deposited data

Results flagged for a closer look

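A library was singled out where its gap to the nearest of its group, divided by the group's range, passed Dixon's 95% critical value; chance alone does so in about 1 of 20 groups, and 24 groups (9 members, Itgam, Itgb2 and Ptprc, each in RSD and CON) were examined. It was CON 18 for Itga4 (4779 normalized reads), Itgal (771), Itgb3 (403), Itgam (9559) and Ptprc (9259). It was RSD 8 for Itga5 (208 normalized reads), Itgb3 (1261) and Ptprc (9008). In CON 18 the border-associated macrophage markers stood high, and in RSD 8 the deviation of genes followed their GC content; their part in these values was not tested.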

How the results depend on the processing

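No paired analysis was possible because the groups share no replicate numbers. No member was called under any alternative tried, and over all genes limma, edgeR and every alternative but DESeq2, which called 2, gave 0. Signs of some differences, none of them called, turned on the log2 scale of RSD minus CON. Without CON 18 and RSD 8 this was so for Itga4 (0.14), Itgal (0.37) and Itgam (-0.025). Within numbers 1 to 8 it was so for Itga4 (0.38), Itga9 (-0.10), Itgb3 (-0.12) and Itgam (-0.050), and within numbers 10 to 19 for Itga6 (-0.0016), Itgb5 (0.18), Itgb2 (0.11) and Ptprc (-0.19). With voom and quality weights it was so for Itgal (0.22), Itgav (-0.0065) and Itgam (-0.017), and with the range as a term for Itgb2 (0.00030). With edgeR without CON 18, added after seeing the data, it was so for Itga4 (0.18), Itgal (0.14), Itga9 (-0.0099) and Itgam (-0.035). The causes were not tested. Leaving out 1 library at a time gave ranges of -1.14 to 0.17 for Itga4, -1.25 to 0.21 for Itgal, -0.023 to 0.026 for Itga9, -0.12 to 0.011 for Itgb5, 0.0080 to 0.41 for Itgb3, -0.033 to 0.12 for Itgam, -0.076 to 0.024 for Itgb2 and -0.0073 to 0.17 for Ptprc; Itga4, Itgal and Itgam turned without CON 18, Itgb5 and Ptprc without RSD 8, Itga9 without CON 18, RSD 10, RSD 11 or RSD 12, and Itgb2 without RSD 8, RSD 13, CON 1, CON 4 or CON 5. Of the 7 partner pairs 2 passed, 2 to 3 without CON 18 or RSD 8 alone, and 0 without both; 4 passed within numbers 1 to 8 and 0 within 10 to 19, a split added after seeing the data. Without CON 18 or RSD 8 in turn, r ran from -0.76 to 0.40 for Itga4 and Itgb1, -0.22 to 0.84 for Itga6 and Itgb1, -0.61 to 0.17 for Itga9 and Itgb1, -0.25 to 0.63 for Itgav and Itgb3 and -0.64 to 0.40 for Itgav and Itgb5; it was 0.31 for Itga4 and Itgb1 without both. Within numbers 1 to 8 r was 0.585 for Itga4 and Itgb1 and -0.695 for Itgav and Itgb3, and within numbers 10 to 19 it was -0.751 for Itga6 and Itgb1, 0.565 for Itga9 and Itgb1 and 0.762 for Itgav and Itgb5, each of opposite sign to the value over all libraries. Depth limits Itgal most, with 4 to 19 reads in 12 libraries. The pathway counts were repeated under the same alternatives after the data were seen and stayed at 0.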
